A study of Mus musculus with 21 samples.

Results

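The 10 genes described here encode the nuclear lamina and the machinery of silent chromatin at the nuclear edge: the lamin B receptor Lbr, the lamins Lmna, Lmnb1 and Lmnb2, the heterochromatin protein 1 (HP1) genes Cbx1, Cbx3 and Cbx5, and the histone H3 lysine 9 (H3K9) methyltransferases Ehmt1, Ehmt2 and Setdb1. They were taken by name for their known place in silencing, with earlier results of these data known. All 10 were found among the 23614 genes of one deposited table and the 22945 of the other. RNA was sequenced from 21 libraries of cells sorted out of the main olfactory epithelium. Every mouse carried a tetracycline-responsive (tetO) transgene, either tetO-Mex3a_HyperTRIBE_mCherry, called MexHT, or tetO-HyperTRIBE_mCherry, called HT. HyperTRIBE is an RNA-editing enzyme domain, and Mex3a is an RNA-binding protein to which it was joined in MexHT. No mouse without a transgene was among the samples, so HT is the control and carries the editing domain and mCherry as well.

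With the drivers gg8tTA and omptTA together there were 6 MexHT and 3 HT libraries of mCherry-positive cells, which the labels call immature and mature olfactory sensory neurons (OSN), and 5 MexHT and 3 HT libraries of mCherry-negative cells. With the driver gg8tTA alone there were 2 MexHT libraries of mCherry-positive cells, labelled immature OSN, and 2 of mCherry-negative cells. The mCherry-negative cells were the internal control of the same-numbered mouse. The gg8 promoter drives the transgene in immature OSN and the OMP promoter in mature OSN. Driver, library date and table change together and cannot be told apart, so comparisons were made only within a table. Age, sex and strain are not given in the sources used here.

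The lamina is a meshwork of lamins under the inner nuclear membrane. Lbr is a membrane protein that ties peripheral heterochromatin to it, next to A-type lamins, which do so in many differentiated cells. HP1 proteins read methylated H3K9. Ehmt1 (GLP) and Ehmt2 (G9a) form a complex that makes dimethylated H3K9, and Setdb1 makes the trimethylated form. In OSN, the clusters of odorant receptor genes are packed in H3K9-methylated heterochromatin, and mature OSN are known for low Lbr protein and for heterochromatin gathered away from the nuclear edge.

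A promoter entry was found in RefSeq for 9 of the 10 members. The sequences below are shown because of how their genes behaved: with both drivers Lbr and Cbx5 were higher in mCherry-negative cells and varied together between libraries, and Lmnb2 was higher in MexHT OSN. Each is the 250 bases before an annotated start, 5′ to 3′ on the gene's strand, from RefSeq on GRCm38.p6.
Lbr, chr1:181842402-181842651, minus strand: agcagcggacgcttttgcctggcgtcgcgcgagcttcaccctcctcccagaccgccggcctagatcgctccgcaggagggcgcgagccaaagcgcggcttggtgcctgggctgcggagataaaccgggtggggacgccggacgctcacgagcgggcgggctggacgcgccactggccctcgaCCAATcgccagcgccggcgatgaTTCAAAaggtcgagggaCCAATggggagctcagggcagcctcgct
Cbx5, chr15:103239853-103240102, minus strand: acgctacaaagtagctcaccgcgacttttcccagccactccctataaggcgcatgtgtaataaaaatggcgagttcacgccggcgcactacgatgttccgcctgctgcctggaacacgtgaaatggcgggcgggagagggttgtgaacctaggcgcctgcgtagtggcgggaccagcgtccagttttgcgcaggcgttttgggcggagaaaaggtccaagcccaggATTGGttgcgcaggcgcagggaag
Lmnb2, chr10:80918246-80918495, minus strand: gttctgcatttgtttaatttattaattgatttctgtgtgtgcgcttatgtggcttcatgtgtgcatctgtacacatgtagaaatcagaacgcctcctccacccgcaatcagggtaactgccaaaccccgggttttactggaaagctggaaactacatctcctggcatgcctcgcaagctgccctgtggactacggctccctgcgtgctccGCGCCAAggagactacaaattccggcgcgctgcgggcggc
Capitals mark matches, on either strand, to the CCAAT box (CCAAT), to an E2F motif (TTCCCGC or TTGGCGC) and to the cell cycle genes homology region, CHR (TTTGAA). The Lbr sequence holds 2 CCAAT boxes, at positions -68 and -28, and a CHR between them at -45. The Cbx5 sequence holds 1 CCAAT box at -24 and the Lmnb2 sequence 1 E2F match at -40. Both genes have another annotated start. The windows before it, chr15:103215353-103215602 for Cbx5 and chr10:80906413-80906662 for Lmnb2, hold none of these motifs and are not shown. Among 32851 mouse promoter windows of the same length, 33.8% held a CCAAT box, 16.0% the CHR and 5.6% an E2F match. The motifs do not overlap one another here, and a match is a description of letters only. The homeodomain core TAATTA (4.8% of windows) and the palindromic EBF motif (0.8%) were found in none of the members' windows.

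The libraries held 7529648 to 15358109 counts recovered from the TPM steps, and each member rested on 286 to 5468 counts in every library. Mex3a, which the transgene adds, was at 328 to 1271 TPM in MexHT OSN with both drivers and at 24.0 to 61.5 in HT OSN. Xist, the transcript of the inactive X chromosome, was at 55.3 to 163 TPM in all 11 MexHT libraries with both drivers, at 60.3 and 76.5 in the libraries of HT mouse 2, and at 0.0934 to 0.140 in those of HT mice 1 and 3. In the gg8 table, the libraries numbered 2 held 159 TPM of Xist in OSN and 21.4 in mCherry-negative cells, although the labels give 1 mouse. Summed mature OSN markers (10 genes) were lower in MexHT OSN (2153 to 6494 TPM) than in HT OSN (8918 to 13760), and immature OSN markers (8 genes) were higher (4275 to 5009 against 2474 to 2800). The gg8 OSN held 240 to 738 TPM of the mature and 4601 to 5833 of the immature markers, and the gg8 mCherry-negative cells held 7715 to 13702 TPM of the mature markers. The mCherry-negative cells with both drivers also held much neuron RNA, with mature OSN marker sums of 5334 to 10893 TPM in HT and 566 to 7065 in MexHT mice, and 0 of the 10 mature markers were called between HT fractions. They held other cells too: granulocyte markers (7 genes) summed to 2631 to 14069 TPM there and to 67.1 to 412 in OSN, and connective tissue and vessel markers (6 genes) to 5214 to 23576 against 42.3 to 325. No marker of any list was at 0 throughout a group. Basal cell markers (5 genes) ranged from 81.6 to 1742 TPM in mCherry-negative cells and from 16.3 to 48.3 in OSN. Sustentacular markers (6 genes) ranged from 94.1 to 868 TPM and ensheathing glia markers (4 genes) from 8.49 to 334, with overlap between the fractions.

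Between fractions, Lbr, Lmna, Lmnb1 and Cbx5 were lower in OSN of both constructs, and Lmnb2 and the methyltransferases were higher in OSN of MexHT mice. In MexHT mice 9 of the 10 members passed the test between OSN and mCherry-negative cells, 5 lower in OSN (27.6% of all genes tested were called lower) and 4 higher (35.8%), beside 63.4% of genes called in either direction. In HT mice 4 members were called, all lower in OSN, where 9.11% of genes were called lower and 11.3% in either direction. In the same comparison 5 of 6 macrophage markers were called higher in OSN, with sums of 800 to 3542 TPM against 112 to 213, and their part in the member differences was not tested. With gg8 no member was called, beside 8.32% of genes. Without overlap between the groups, 5 members were lower and 3 higher in MexHT OSN (19.6% and 23.4% of genes), 4 were lower in HT OSN (18% of genes), and 1 was lower and 4 were higher in gg8 OSN (30.2% and 33.5% of genes). Among those 4, Setdb1 was nearly tied, at 58.34 TPM in its lower OSN library and 58.29 in its higher mCherry-negative library. The members' median difference was -0.39 on the log2(TPM + 1) scale in MexHT mice, where the median of all genes was 0.16, and -0.18 in HT mice, where it was 0.10. It was 0.31 in gg8 mice, where the median of all genes was 0.09. After median-of-ratios scaling the median of all genes in MexHT mice was 0.03, a shift that changed the calls of Ehmt1, Ehmt2 and Cbx1. In bulk RNA, fewer cells of a type and less RNA per cell cannot be told apart.

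**Figure D1:**
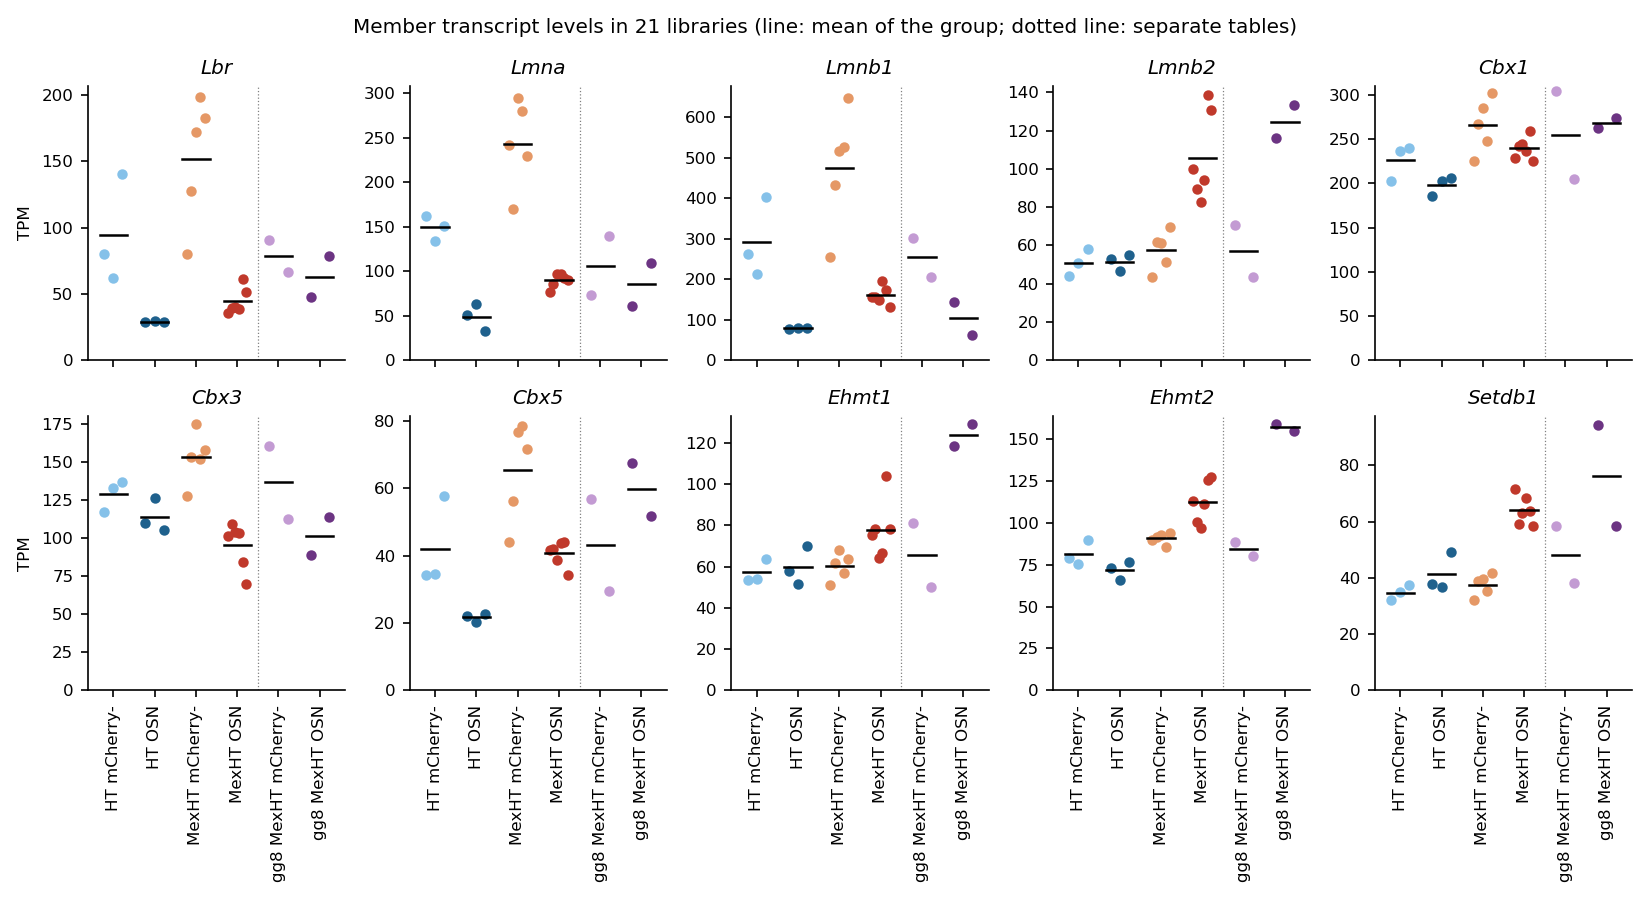
TPM of each member (vertical axes, linear from 0) in the 21 libraries, 1 point per library and a line at the mean of each group, with the separately scaled gg8 table right of the dotted line. Lbr, Lmna and Lmnb1 are low in both OSN groups of the first table, and Lmnb2, Ehmt2 and Setdb1 are highest in MexHT OSN there.

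Lbr was the member with the strongest contrast in MexHT mice. It stood at 29.1, 29.5 and 28.8 TPM in HT OSN and at 80.4, 61.8 and 141 in the mCherry-negative cells of those mice, replicates 1 to 3. In MexHT OSN it ranged from 36.0 to 61.0 TPM with a median of 39.7, and in MexHT mCherry-negative cells it was 79.8, 127, 172, 199 and 183. Every OSN library lay below every mCherry-negative library of its construct. By the limma test, whose p-values are Benjamini-Hochberg adjusted over all genes, the log2 difference was -1.71 (SE 0.22, adjusted p = 3.12e-05), 3.27-fold lower, in MexHT mice, and -1.58 (SE 0.28, adjusted p = 0.0169), 2.98-fold lower, in HT mice. The HT call did not hold without HT mCherry-negative replicate 1 (adjusted p = 0.0681), HT OSN replicate 1 (0.0672) or HT OSN replicate 2 (0.0649). In gg8 mice the levels overlapped, 47.8 and 78.4 TPM in OSN against 90.4 and 66.9 in mCherry-negative cells (log2 difference -0.34, SE 0.36, adjusted p = 0.546).

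Lbr levels mostly moved with the summed TPM of 8 markers of dividing cells and progenitors, among them Mki67 and Top2a. That sum was 78.5 to 114 TPM in HT OSN, 121 to 755 in MexHT OSN, 396 to 1040 in HT and 412 to 1467 in MexHT mCherry-negative cells. Within MexHT OSN, replicates 5 and 6 had the largest sums (755 and 293) and the most Lbr (61.0 and 51.5 TPM). Within mCherry-negative cells, MexHT replicate 1 had the smallest sum of its group and the least Lbr, and HT replicate 3 had the largest sum and the most Lbr. Other libraries did not follow: HT mCherry-negative replicate 2 had a larger sum than replicate 1 (428 against 396) but less Lbr (61.8 against 80.4 TPM). HT OSN stayed at 28.8 to 29.5 TPM of Lbr over their sums. MexHT OSN replicate 5 had less Lbr than HT mCherry-negative replicate 1 at a larger sum. In the gg8 table the sums were 145 and 890 TPM in OSN and 1193 and 470 in mCherry-negative cells, there in the order of Lbr. The part of dividing cells in the Lbr differences was not tested. Over the 17 libraries with both drivers, the genes whose log2 levels ran closest to Lbr, of 13338 ranked, were Hmgb2 (Pearson r = 0.990), Hist2h3b (0.989), Rpia (0.989), Uhrf1 (0.987) and Hist1h4b (0.986). Hmgb2 is a chromatin protein of dividing cells, and both Hist genes encode histones of the replication phase. These libraries share 4 groups, so the group differences enter every such value.

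**Figure D2:**
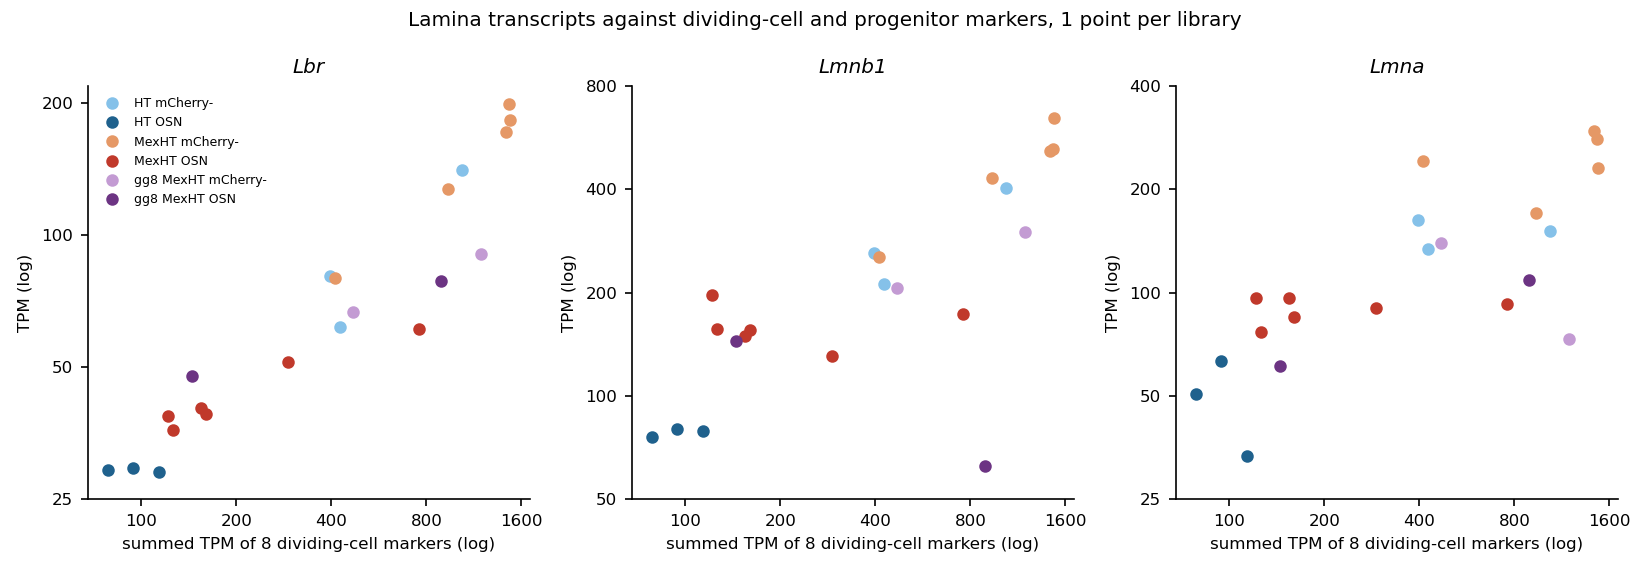
TPM of Lbr, Lmnb1 and Lmna (log vertical axes) against the summed TPM of 8 markers of dividing cells and progenitors (log horizontal axis), 1 point per library, coloured by group. Lbr is mostly higher where the sum is larger, with scatter: MexHT OSN replicate 5 (sum 755 TPM) lies below HT mCherry-negative replicate 1 (sum 396 TPM). In the Lmnb1 panel, 1 gg8 OSN library with a sum of 890 TPM has only 62.5 TPM.

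Lmnb1, a B-type lamin farnesylated at the nuclear membrane, was the most abundant lamin transcript in mCherry-negative cells. It stood at 75.9, 80.3 and 79.0 TPM in HT OSN and at 261, 212 and 402 in HT mCherry-negative cells. MexHT OSN ranged from 131 to 196 TPM (median 156) and MexHT mCherry-negative cells held 254, 431, 516, 526 and 647. No OSN library reached a mCherry-negative library of its construct. It was 2.84-fold lower in MexHT OSN (log2 difference -1.51, SE 0.20, adjusted p = 3.62e-05) and 3.56-fold lower in HT OSN (-1.83, SE 0.22, adjusted p = 0.00477). In gg8 mice Lmnb1 was at 144 and 62.5 TPM in OSN and at 301 and 206 in mCherry-negative cells. That difference missed the threshold (-1.38, SE 0.44, adjusted p = 0.0992) but passed with the mouse as a block (adjusted p = 0.0464), as the only member. Without gg8 OSN replicate 1 it also passed (adjusted p = 0.0262), but that fit compares only the library with 62.5 TPM, taken to vary like the mCherry-negative libraries. The genes closest to Lmnb1 over the 17 libraries were Ect2 (r = 0.971), a regulator of cytokinesis, Hmgb2 (0.970), Vim (0.968), Optn (0.968) and Cdkn2c (0.968).

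Lmna encodes the A-type lamins A and C. It was at 50.6, 63.1 and 33.3 TPM in HT OSN, at 162, 134 and 151 in HT mCherry-negative cells, at 77.0 to 96.6 (median 91.2) in MexHT OSN and at 242, 170.2, 295, 279.8 and 230.0 in MexHT mCherry-negative cells. The fractions did not overlap for either construct. It was 2.66-fold lower in MexHT OSN (-1.41, SE 0.13, adjusted p = 1.96e-06) and 3.09-fold lower in HT OSN (-1.63, SE 0.23, adjusted p = 0.00739). With gg8 it was at 61.2 and 109 TPM in OSN and at 73.1 and 139.5 in mCherry-negative cells, a difference of -0.30 (SE 0.44, adjusted p = 0.659). Connective tissue and vessel markers were higher in mCherry-negative cells of HT and MexHT mice. They were also higher there with gg8 (5214 and 5501 against 42.3 and 57.2 TPM). Granulocyte and basal cell markers were likewise higher in mCherry-negative cells, and the part of these cell types was not tested.

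Lmnb2, the other B-type lamin, did not follow Lmnb1. In HT mice the fractions overlapped, with 52.7, 46.6 and 54.9 TPM in OSN and 44.3, 50.8 and 57.9 in mCherry-negative cells (0.02, SE 0.14, adjusted p = 0.944). In MexHT mice it ranged from 82.5 to 139 TPM (median 96.9) in OSN and was 43.3, 61.9, 61.5, 51.5 and 69.7 in mCherry-negative cells. The lowest OSN library lay above the highest mCherry-negative library, and the difference was 1.81-fold (0.86, SE 0.16, adjusted p = 0.000538). With gg8 it was at 116 and 133 TPM in OSN and at 70.9 and 43.4 in mCherry-negative cells (1.15, SE 0.34, adjusted p = 0.0835).

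Set against each other within a library, the B-type lamins separated the fractions in all 3 sets of mice. The ratio of Lmnb2 to Lmnb1 TPM was 0.580 to 0.695 in HT OSN against 0.144 to 0.239 in HT mCherry-negative cells, and 0.480 to 0.997 in MexHT OSN against 0.0980 to 0.170 in MexHT mCherry-negative cells. With gg8 it was 0.805 and 2.13 in OSN and 0.235 and 0.211 in mCherry-negative cells. The highest ratio was that of gg8 OSN replicate 2, the library with the low Lmnb1 value. Such a ratio does not depend on how a library was scaled. The summed TPM of the 3 lamins was 167 to 190.0 in HT OSN, 328 to 405 in MexHT OSN, 397 to 611 in HT mCherry-negative cells and 539.7 to 947 in MexHT mCherry-negative cells.

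**Figure D3:**
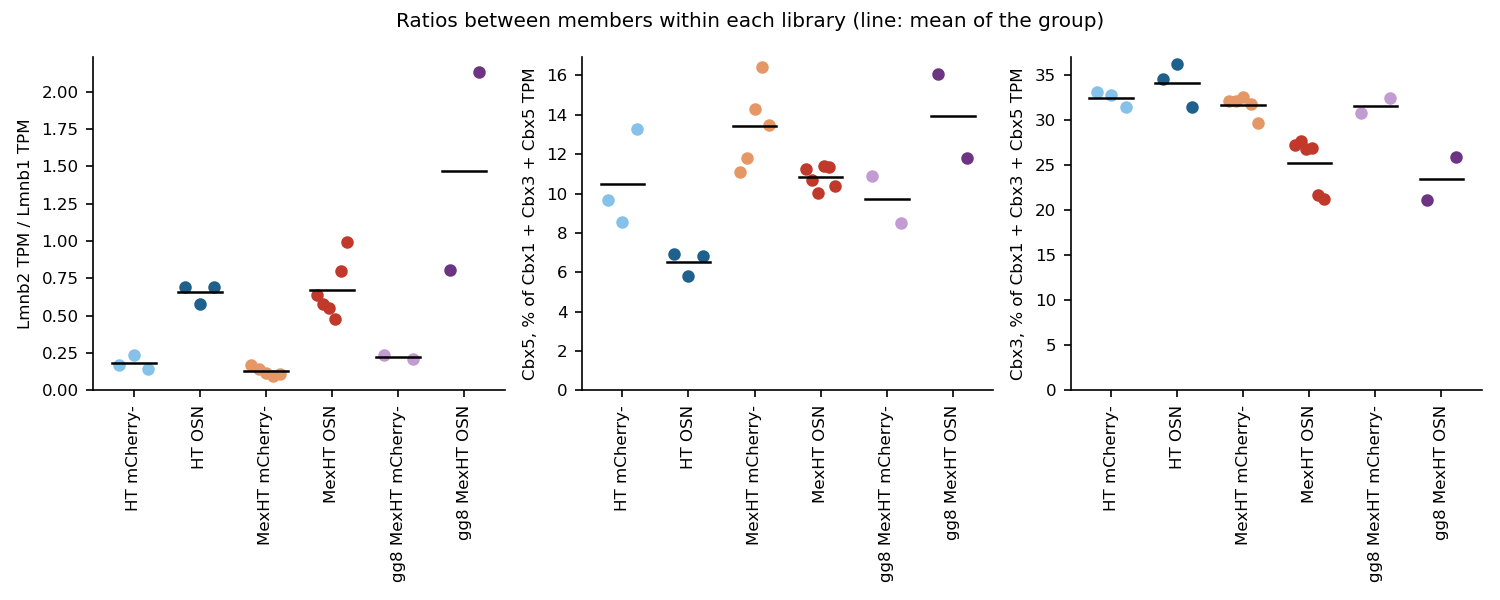
Ratio of Lmnb2 to Lmnb1 TPM (left) and the shares of Cbx5 (middle) and Cbx3 (right) in the summed TPM of Cbx1, Cbx3 and Cbx5, 1 point per library and a line at each group mean, with linear axes from 0. The OSN libraries lie above the mCherry-negative libraries in the lamin ratio, and HT OSN have the lowest Cbx5 shares (5.83% to 6.94%).

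Among HP1 genes, Cbx5 (HP1 alpha) was the rarest and the most variable. It was at 22.1, 20.4 and 22.8 TPM in HT OSN, at 34.3, 34.5 and 57.7 in HT mCherry-negative cells, at 34.2 to 44.0 (median 42.0) in MexHT OSN and at 44.0, 56.2, 76.8, 78.6 and 71.6 in MexHT mCherry-negative cells. OSN lay below mCherry-negative cells without overlap for either construct. The difference was -0.64 in MexHT mice (SE 0.15, adjusted p = 0.00243) and -0.88 in HT mice (SE 0.22, adjusted p = 0.0484). The HT call was at the threshold: it did not hold without HT OSN replicate 1 (adjusted p = 0.146), 2 (0.147) or 3 (0.0888), without HT mCherry-negative replicate 1 (0.0981), with every gene kept (0.0581) or by voom on recovered counts (0.0541). In gg8 mice OSN held 67.5 and 51.9 TPM and mCherry-negative cells 56.8 and 29.6 (0.52, SE 0.41, adjusted p = 0.413). Cbx5 ran with Lmnb1 across the 17 libraries (r = 0.93), also after group means were removed (0.90), and with Lbr (0.87 and 0.80), as a description of libraries that share groups.

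Cbx3 (HP1 gamma) was lower in MexHT OSN (70.2 to 109 TPM, median 102) than in MexHT mCherry-negative cells (128, 153, 175, 152 and 158), with a difference of -0.69 (SE 0.13, adjusted p = 0.000470). In HT mice it was at 110.3, 127 and 105 TPM in OSN and at 117, 133 and 137 in mCherry-negative cells (-0.18, SE 0.12, adjusted p = 0.304). With gg8 it was at 88.8 and 114 TPM in OSN and at 161 and 113 in mCherry-negative cells (-0.42, SE 0.31, adjusted p = 0.386). Hnrnpa2b1, which starts 466 bases away on the opposite strand, was at 866 TPM in MexHT OSN and 859.8 in MexHT mCherry-negative cells on average and did not pass the test (0.02, adjusted p = 0.885).

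Cbx1 (HP1 beta) was the most abundant and steadiest HP1 transcript, with group means from 198 TPM in HT OSN to 269 in gg8 OSN and a lowest and highest library of 186 and 304. It passed no test between fractions (MexHT -0.14, adjusted p = 0.196; HT -0.19, adjusted p = 0.264; gg8 0.10, adjusted p = 0.83). After median-of-ratios scaling and by voom its MexHT difference passed as lower in OSN (adjusted p = 0.0159 and 0.0381). As a share of the 3 HP1 genes, Cbx5 made up 5.83% to 6.94% in HT OSN, 8.53% to 13.3% in HT mCherry-negative cells, 10.0% to 11.4% in MexHT OSN and 11.1% to 16.4% in MexHT mCherry-negative cells. The Cbx3 share was 21.3% to 27.8% in MexHT OSN and 29.7% to 36.3% in the other 11 libraries with both drivers. It was 21.2% and 25.9% in gg8 OSN and 30.8% and 32.5% in gg8 mCherry-negative cells.

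The H3K9 methyltransferases passed no test between fractions in HT mice, where 11.3% of all genes were called, 19.3% of those as higher. All 3 were called higher in the OSN of MexHT mice, as were 35.8% of all genes. The test of the interaction, given below, called Ehmt2 alone among them. Setdb1 was at 38.0, 36.8 and 49.3 TPM in HT OSN, at 32.0, 35.0 and 37.3 in HT mCherry-negative cells, at 58.5 to 71.7 (median 63.4) in MexHT OSN and at 32.0, 38.9, 39.5, 35.2 and 41.8 in MexHT mCherry-negative cells. All 6 MexHT OSN libraries lay above every other library with both drivers. The difference between fractions was 1.69-fold in MexHT mice (0.76, SE 0.10, adjusted p = 3.03e-05) and did not pass in HT mice (0.23, SE 0.15, adjusted p = 0.295). With gg8, Setdb1 was at 94.3 and 58.34 TPM in OSN and at 58.29 and 38.3 in mCherry-negative cells (0.64, SE 0.39, adjusted p = 0.293).

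Ehmt2 was at 73.1, 65.9 and 76.6 TPM in HT OSN, at 79.0, 75.6 and 89.7 in HT mCherry-negative cells, at 96.6 to 127 (median 112) in MexHT OSN and at 89.99, 91.5, 92.6, 85.4 and 93.6 in MexHT mCherry-negative cells. MexHT OSN did not overlap with any other group with both drivers. The difference between fractions was 0.30 in MexHT mice (SE 0.09, adjusted p = 0.0132) and -0.18 in HT mice (SE 0.11, adjusted p = 0.298). With gg8 it was at 159 and 155 TPM in OSN and at 88.3 and 80.1 in mCherry-negative cells (0.89, SE 0.27, adjusted p = 0.0857). Ehmt1 was at 64.2 to 104 TPM (median 76.7) in MexHT OSN and at 50.9, 61.6, 68.3, 57.0 and 63.9 in MexHT mCherry-negative cells, which overlapped (0.35, SE 0.13, adjusted p = 0.0302). In HT mice Ehmt1 was at 57.8, 51.8 and 69.9 TPM in OSN and at 53.7, 54.2 and 63.9 in mCherry-negative cells (0.06, SE 0.14, adjusted p = 0.805). With gg8 it was at 118 and 129 TPM in OSN and at 81.3 and 50.2 in mCherry-negative cells (0.94, SE 0.33, adjusted p = 0.119).

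The MexHT calls of both Ehmt genes depended on the scaling. After median-of-ratios scaling the adjusted p was 0.127 for Ehmt1 and 0.165 for Ehmt2, and by voom 0.0951 and 0.108. The Ehmt1 call was also lost without MexHT mCherry-negative replicate 1 (0.0716) or 4 (0.0655), without MexHT OSN replicate 2 (0.0531), and without MexHT OSN replicates 5 and 6 together (0.0705). The ratio of Ehmt2 to Ehmt1 TPM stayed between 1.09 and 1.77 in all 21 libraries, with group means of 1.21 in HT OSN and 1.46 in MexHT OSN.

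**Figure D4:**
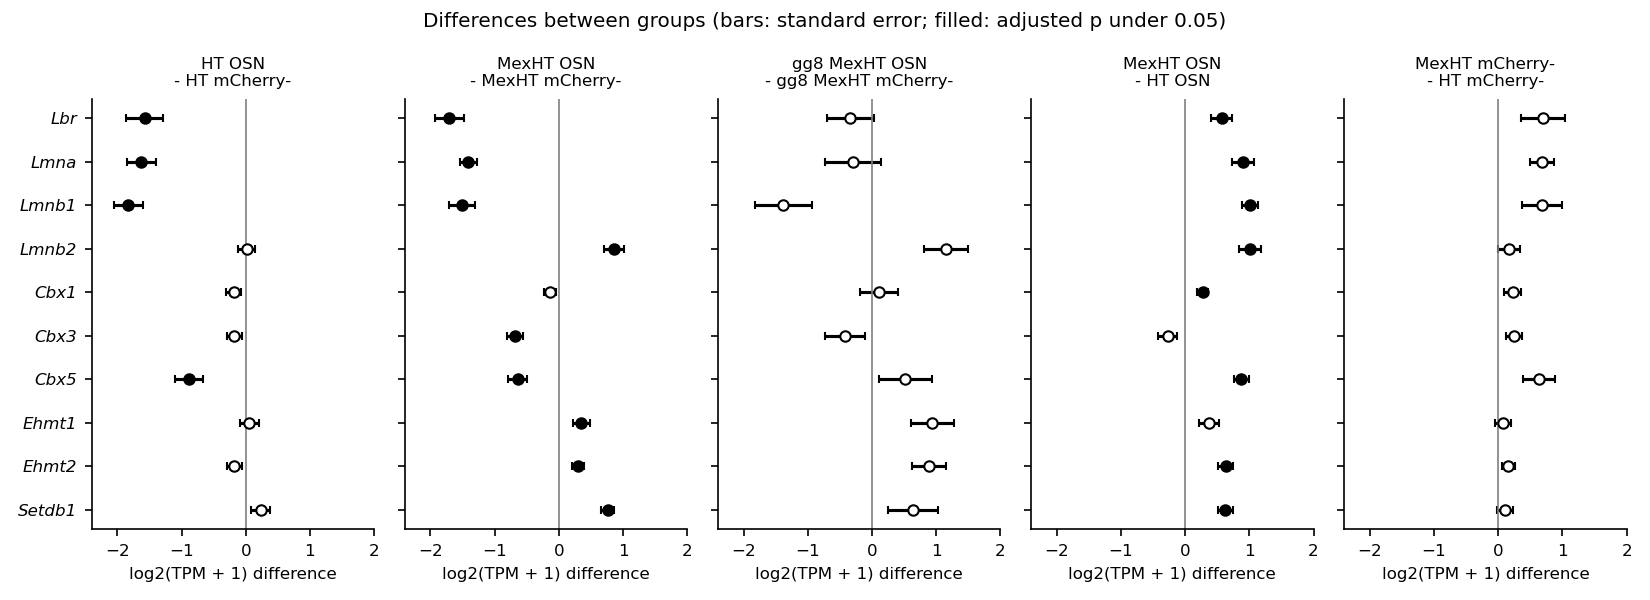
Differences of the 10 members on the log2(TPM + 1) scale (horizontal axes) with their standard errors in 5 comparisons, filled where the limma adjusted p was under 0.05. Lbr, Lmna and Lmnb1 are lower in OSN than in mCherry-negative cells with both drivers. In the 4th panel 9 members lie above 0, and 8 of them are called higher in MexHT OSN than in HT OSN, as were 19.9% of all genes.

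Whether Mex3a in the transgene goes with other member levels was read from MexHT against HT within a fraction. In OSN, 8 of 10 members were called, all higher in MexHT, where 36.8% of the 16067 genes were called and 19.9% as higher. The same 8 had MexHT OSN libraries that all lay above the HT OSN libraries, as did 21.5% of genes. The members' median difference was 0.63, beside 0.03 for all genes. Lmnb1 (2.02-fold, 1.01, SE 0.12, adjusted p = 0.000370), Lmnb2 (2.01-fold, 1.00, SE 0.17, adjusted p = 0.00185) and Lmna (1.86-fold, 0.90, SE 0.17, adjusted p = 0.00328) rose most, with Cbx5 (1.83-fold, 0.87, SE 0.12, adjusted p = 0.000597). Setdb1 (0.63, SE 0.12, adjusted p = 0.00329) and Ehmt2 (0.63, SE 0.11, adjusted p = 0.00242) followed, and Lbr (0.57, SE 0.17, adjusted p = 0.0231) and Cbx1 (0.27, SE 0.09, adjusted p = 0.0303) were called with less margin.

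Ehmt1 was 0.37 higher in MexHT OSN (SE 0.16, adjusted p = 0.0903) and Cbx3 0.27 lower (-0.27, SE 0.15, adjusted p = 0.171), and neither passed. Lbr lost its call without HT OSN replicate 1 (adjusted p = 0.0737), 2 (0.0668) or 3 (0.0606) and when all 4 groups were fitted together (0.113). Cbx1 lost it without HT OSN replicate 1 (0.143) or 2 (0.0785) and without MexHT OSN replicate 2 (0.0558), 3 (0.0584) or 4 (0.0513). Without MexHT OSN replicates 5 and 6, which had the most Mex3a (1271 and 679 TPM), 8 members, again without Ehmt1 and Cbx3, were called. The Lbr difference was 0.39 (adjusted p = 0.00503). That fit called more genes in all, 7222 in place of 5907, 56.4% of them as higher.

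These member differences came with others between the OSN groups. All MexHT OSN libraries held less mature and more immature OSN marker RNA than the HT OSN libraries, more dividing cell marker RNA, and less of 6 macrophage markers (165 to 343 against 800 to 3542 TPM). Their part in the member differences was not tested. Xist was also near 0 in HT OSN replicates 1 and 3. With Xist as a covariate, 1 member, Cbx5, was called (0.99, adjusted p = 0.0472), as were 329 genes in place of 5907. The other 7 members kept their direction but missed the threshold: Lmnb1 at 0.97 (adjusted p = 0.0592), Lmnb2 at 1.12 (0.0881), Setdb1 at 0.84 (0.0680), Ehmt2 at 0.76 (0.0822), Lbr at 0.46 (0.402), Lmna at 0.38 (0.372) and Cbx1 at 0.22 (0.437). Lmna was thus the only one of these 7 whose difference moved by more than 1.5 times. Compared with HT OSN replicate 2 alone, the HT library with Xist, the differences of the 8 members were 0.24 to 1.14, and Lmnb1 (0.98, adjusted p = 0.0366), Cbx5 (0.96, adjusted p = 0.0297) and Setdb1 (0.78, adjusted p = 0.0371) were called. In that fit the lone library was taken to vary like the others. The Lmna difference was 0.49 there (adjusted p = 0.106), against 0.90 with all HT libraries.

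In mCherry-negative cells no member was called between MexHT and HT, and no gene of 16860 (0%). The limma test gave 3465 genes with an unadjusted p under 0.05, and voom called 0 genes. All 10 differences were above 0, by 0.07 to 0.70. Lmna alone did not overlap between the groups (3.64% of genes were so placed), with a difference of 0.68 (SE 0.18, adjusted p = 0.218). Lbr differed by 0.70 (SE 0.35, adjusted p = 0.277), Lmnb1 by 0.69 (SE 0.31, adjusted p = 0.254) and Cbx5 by 0.63 (SE 0.24, adjusted p = 0.221), each with overlap. With the replicate block the Lbr and Lmnb1 differences were 0.44 and 0.45 (adjusted p = 0.349 and 0.343), and without HT mice 1 and 3 they were 1.22 and 1.09 (0.212 and 0.223), with 1 HT library taken to vary like the others. Dividing cell marker sums were 412 to 1467 TPM in MexHT and 396 to 1040 in HT mCherry-negative cells.

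A test of the interaction asked whether the construct difference differed between OSN and mCherry-negative cells. It called Lmnb2 (0.84, SE 0.25, adjusted p = 0.0358) and Ehmt2 (0.48, SE 0.15, adjusted p = 0.0412), both with the larger difference in OSN, beside 12.4% of 16785 genes in either direction and 7.05% in this one. Setdb1 lay at the threshold (0.53, SE 0.17, adjusted p = 0.0504) and passed with the mouse as a block (adjusted p = 0.0200), a fit that called 3398 genes in place of 2086. Lbr (-0.13), Lmna (0.22), Lmnb1 (0.32), Cbx1 (0.05), Cbx5 (0.24), Ehmt1 (0.29) and Cbx3 (-0.51, adjusted p = 0.0960) did not pass. Under median-of-ratios scaling Lmnb2 (adjusted p = 0.0640) and Ehmt2 (0.143) lost their calls, Cbx3 passed as lower (0.0353), and the share of called genes with a positive term fell from 56.8% to 40.4%. The Lmnb2 call was lost without HT OSN replicate 1 (0.0646), 2 (0.0885) or 3 (0.0540), HT mCherry-negative replicate 2 (0.0766) or 3 (0.0793), or MexHT mCherry-negative replicate 4 (0.0633). The Ehmt2 call was lost by voom (0.0754) and without any 1 of the 6 HT libraries, MexHT OSN replicate 1, 4 or 6, or MexHT mCherry-negative replicate 3, 4 or 5 (adjusted p from 0.0517 to 0.112). Setdb1 passed by voom (0.0411), without HT OSN replicate 3 (0.0234), MexHT mCherry-negative replicate 5 (0.0455) or MexHT OSN replicate 6 (0.0476), and without MexHT OSN replicates 5 and 6 together (0.0385).

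Other genes of these pathways were read from 4 lists. For MexHT against HT OSN, the Xist difference given above applies to them as well. With Xist as a covariate 329 genes in place of 5907 were called in that comparison, and the list genes of that fit are not given here. Of 23 other genes of H3K9 methylation and heterochromatin, 9 were called higher and 5 lower in MexHT OSN than in HT OSN. Over all genes 19.9% were called higher and 16.8% lower, and the list's median difference was 0.21. Suv39h1, which makes trimethylated H3K9 at pericentromeric repeats, had the largest difference. It was at 10.5, 12.3 and 13.8 TPM in HT OSN and at 34.3 to 45.9 in MexHT OSN (1.61, SE 0.14, adjusted p = 9.58e-05). Uhrf1, which guides maintenance DNA methylation, was also higher (1.08, adjusted p = 0.0281). Setd8, the H4K20 monomethylase, was lower (-0.82, adjusted p = 0.000942), as was Fam208a of the HUSH silencing complex (-0.68, adjusted p = 0.0308).

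Between fractions of MexHT mice, 9 of the 23 were called higher and 4 lower in OSN, where 35.8% of all genes were called higher and 27.6% lower, so the higher count is near the background and the lower count under it. Setdb2 (1.45, adjusted p = 2.11e-06) and Wiz, a partner of the Ehmt complex (1.24, adjusted p = 3.45e-07), were higher. Uhrf1 (-2.22, adjusted p = 0.000351) and Chaf1b of the replication-coupled chromatin assembly factor (-1.53, adjusted p = 0.00686) were lower. In HT mice 1 was called higher (Setdb2, 0.64, adjusted p = 0.0450) and 1 lower (Uhrf1, -2.22, adjusted p = 0.0121), beside 11.3% of all genes in either direction. In gg8 mice 1 was higher (Morc2a, 1.44, adjusted p = 0.0403) and 1 lower (Setd8, -1.18, adjusted p = 0.0448), beside 8.32% of all genes.

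Of 10 H3K9 demethylases, 3 were called higher and 1 lower in MexHT OSN than in HT OSN, with a median of 0.06. Over all genes 19.9% were called higher there and 16.8% lower. Kdm1a, the lysine demethylase LSD1 known for its part in odorant receptor choice, was at 157, 168 and 160.1 TPM in HT OSN and at 279 to 419 in MexHT OSN (1.01, SE 0.14, adjusted p = 0.000711). Kdm4a was higher (0.66, adjusted p = 0.0142) and Phf8 lower (-0.57, adjusted p = 0.00311). Between MexHT fractions 7 were higher in OSN, led by Phf2 (0.82, adjusted p = 1.73e-05) and Kdm4a (0.80, adjusted p = 0.00139), and Kdm7a was lower (-1.18, adjusted p = 5.94e-05). Of all genes, 35.8% were called higher there and 27.6% lower. In HT and gg8 mice none of the 10 was called, beside 11.3% and 8.32% of all genes.

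Of 16 other genes of the nuclear envelope, 2 were called higher and 2 lower in MexHT OSN than in HT OSN, where 19.9% of all genes were called higher and 16.8% lower. Neither count is above the background, and the list's median was 0.02. Banf1, a chromatin-binding partner of LEM-domain proteins (0.78, adjusted p = 0.00145), and Emd, the LEM-domain protein emerin (0.59, adjusted p = 0.00269), were higher. Sun1, an inner membrane anchor of the cytoskeleton, was at 229, 218 and 183 TPM in HT OSN and at 90.03 to 117 in MexHT OSN (-1.07, SE 0.12, adjusted p = 0.000241). Zmpste24, the prelamin A protease, was also lower (-0.81, adjusted p = 0.00908). Between fractions, Sun2 and Syne1, which link nucleus and cytoskeleton, were lower in OSN of both constructs: Sun2 by -2.62 in MexHT (adjusted p = 3.14e-06) and -2.21 in HT mice (adjusted p = 0.0185), and Syne1 by -2.55 (adjusted p = 2.35e-07) and -2.49 (adjusted p = 0.00554). In MexHT mice 5 of the 16 were called lower and 3 higher, among these Icmt (0.40, adjusted p = 0.0156) and Lemd2 (0.39, adjusted p = 0.00850). Of all genes 27.6% were called lower there and 35.8% higher, so the lower count is near the background and the higher count under it. In HT mice 2 were lower and 0 higher, beside 9.11% of all genes called lower. In gg8 mice 0 of 16 were called, beside 8.32% of all genes.

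Of 5 Polycomb chromobox genes, which read methylated H3K27 and serve here as relatives of the HP1 genes, 2 were called lower in MexHT OSN than in HT OSN, Cbx7 (-0.87, adjusted p = 0.00332) and Cbx6 (-0.70, adjusted p = 0.00143). Of all genes 16.8% were called lower there. Between MexHT fractions, Cbx8 (1.02, adjusted p = 0.000549) and Cbx2 (0.81, adjusted p = 0.0435) were higher in OSN, as were 35.8% of all genes. None of the 5 was called in HT or gg8 mice, beside 11.3% and 8.32% of all genes. In mCherry-negative cells 0 genes of the 4 lists were called between MexHT and HT, where 0 of all 16860 genes were called. The interaction called 4 of the 23 H3K9 genes higher and 1 lower, 1 of the 10 demethylases higher, and 0 genes of the other 2 lists. Over all genes it called 7.05% higher and 12.4% in either direction.

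**Figure D5:**
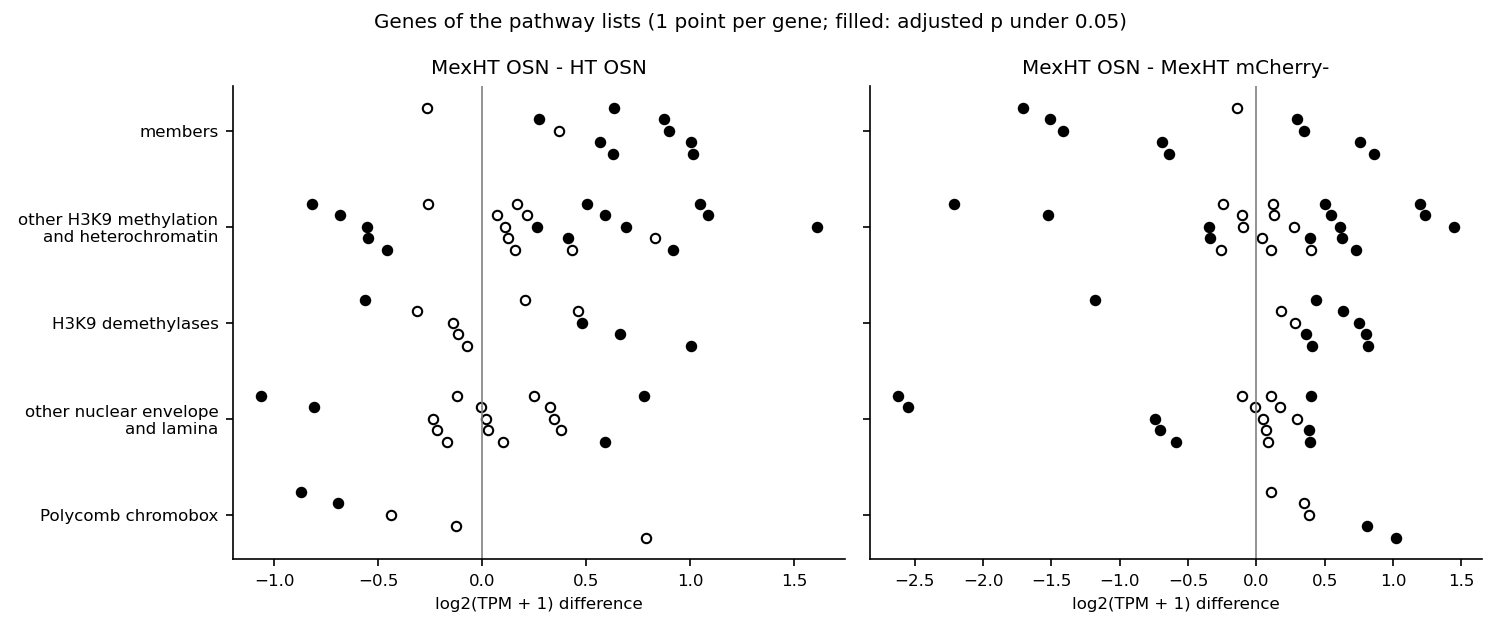
Difference on the log2(TPM + 1) scale of each member and each gene of the 4 pathway lists, MexHT OSN minus HT OSN (left) and MexHT OSN minus MexHT mCherry-negative cells (right), filled where the adjusted p was under 0.05. On the left the members lie mostly right of 0, and the other lists lie on both sides.

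Across the 17 libraries with both drivers, Lbr ran with Lmnb1 (r = 0.96, and 0.80 after the group means were removed), while its r with Lmna of 0.90 was 0.27 after removal. Lmnb2 ran with Ehmt2 (0.90 and 0.80), Ehmt1 (0.89 and 0.81) and Setdb1 (0.89 and 0.42). Lmnb1 and Lmnb2 did not run together (-0.14, and 0.44 after removal). Each value describes 17 libraries of 9 mice, which share depth, cell mixture and groups.

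The members lie on 9 different chromosomes, and none is on the X. In GRCm38 with the GENCODE annotation, the genes span chr1:181815335-181843046 (Lbr, minus strand), chr3:88480147-88509956 (Lmna, minus), chr18:56707813-56753424 (Lmnb1, plus) and chr10:80901203-80918245 (Lmnb2, minus). The HP1 genes span chr11:96789127-96808640 (Cbx1, plus), chr6:51470360-51483704 (Cbx3, plus) and chr15:103191544-103239816 (Cbx5, minus). The methyltransferases span chr2:24789928-24919614 (Ehmt1, minus), chr17:34898469-34914052 (Ehmt2, plus) and chr3:95323525-95357202 (Setdb1, minus). Setdb1 overlaps Cers2, and Cbx1 overlaps the processed pseudogene Gm11517, each on the opposite strand and counted as a gene of its own. The use of strand in counting is not given in the sources used here, so the reads of each pair cannot be told apart. Cbx3 has 8 annotated processed pseudogenes, none of them a row of the tables, so its level is uncertain where reads could be shared.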

How the data were processed

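The 10 members and the pathway and marker lists were chosen with earlier results of these data known. The authors deposited 2 gene tables of TPM, a transcript abundance scaled within each library by gene length and depth. Per the labels' protocols, cells were freed with papain, RNA was taken with TRIzol, and 10 ng went into a stranded total RNA kit. Per the submitters' processing notes, FastQC, cutadapt, STAR and bedtools were used with build mm10. The program that made the TPM, its annotation and its use of strand are not given in the sources used here. Genes with date-like names in place of symbols, 27 per file, were left out (at most 0.221% of TPM).

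Differences were tested with limma 3.58.1 in R 4.3.3 on log2(TPM + 1), with a mean trend, keeping each gene whose average over the compared libraries reached 1 TPM. Tests were two-sided, with Benjamini-Hochberg adjusted p under 0.05 as the threshold. Folds are on that log2 scale and understate changes of low genes. SE is the standard error of the fit. Whole counts were recovered from the TPM steps for 100.00% of genes within 0.001 in one table. In the other, of 22945 genes, 22809 had a step taken from the first, and whole counts were recovered within 0.05 for 99.86% of these. They gave the depth and a voom alternative. The recovery and the fits were tested on simulated data. Other alternatives were pseudocount 0.1, no filter, median-of-ratios scaling, Xist as a covariate, all 4 groups in one fit, a replicate block and each library left out. Leaving out MexHT OSN replicates 5 and 6, or HT mice 1 and 3, was chosen after seeing the data. Besides members, Mex3a and Xist, the text names the 5 genes most correlated with Lbr and with Lmnb1, and up to 2 called genes per list and direction, all with at least 5 TPM. Genes next to members were named from the annotation.

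Same-numbered OSN and mCherry-negative libraries came from 1 mouse per the labels. The correlation of their deviations from group means was -0.109 to 0.421 in MexHT, 0.174 to 0.475 in HT and 0.0178 in gg8 mice. Between MexHT and HT mCherry-negative cells, same numbers correlated at 0.231 to 0.418, and a block changed no call there. Replicates are separate mice only as far as their numbers say.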

Additional observations from a re-analysis of the deposited data

Results flagged for a closer look

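Ehmt1 had 1 MexHT OSN library far from the other 5: replicate 5, at 104 TPM, was separated from the next by 0.643 of the group's range. This was 1 of 20 member groups examined in this way, and chance sets apart about 1 in 20. The same library had the most Mex3a (1271 TPM) and the most dividing cell marker RNA (755 TPM) of its group.

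The construct difference differed between OSN and mCherry-negative cells for Lmnb2, by 0.8428 on the log2 scale (limma, adjusted p = 0.0358), and for Ehmt2, by 0.4770 (adjusted p = 0.0412). In both, MexHT lay above HT in OSN without overlap, in 6 of 6 libraries, and the groups overlapped in mCherry-negative cells for Lmnb2 (0.16) and for Ehmt2 (0.16). The Lmnb2 call held in 16 of 23 alternatives and the Ehmt2 call in 9 of 23. Neither held after median-of-ratios scaling (limma adjusted p = 0.0640 and 0.143).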

How the results depend on the processing

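Of 960 member values under the alternatives, 872 kept direction and side of the threshold, 59 lost a call, 11 gained one and 18 changed sign. The cause was not tested, except that leaving out libraries leaves fewer samples. Called genes in MexHT OSN against HT OSN numbered 329 with Xist as a covariate and 1132 without HT mice 1 and 3 (1 and 3 members), against 5907 (8 members), and 3745 to 6506 with single libraries left out (6 to 8 members). In mCherry-negative cells the constructs gave 1 gene with no filter, 24 with all 4 groups fitted, and 0 to 4 with libraries left out. HT OSN against HT mCherry-negative cells gave 1055 genes by voom and 4967 with the replicate block, against 1923, and 660 to 4183 with libraries left out (2 to 4 members). The share called higher was 19.3%, 7.5% by voom and 45.4% with the block. The gg8 comparison gave 646 genes with pseudocount 0.1, against 1372, and 0 to 3703 with libraries left out (0 to 1 members; 1 with the block). The interaction gave 3398 genes with the block, against 2086, and 1195 to 2483 with single libraries left out (0 to 2 members). It called 1 member after median-of-ratios scaling, 3 with the block, and 3 without MexHT OSN replicates 5 and 6 together. Of these fits the count of all genes called is given here only for the block, so the other member counts lack a background.

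The sign changes were in differences that had not passed. HT Lmnb2 was -0.0604 and -0.0871, and HT Ehmt1 -0.0202 and -0.0409, after median-of-ratios scaling and by voom. With libraries left out they ran from -0.0797 to 0.1104 and from -0.0597 to 0.1539. In gg8 mice Lbr ran from -0.6917 to 0.0126, Lmna from -0.7642 to 0.1586 and Cbx1 from -0.1792 to 0.3867 (-0.0134 by voom). The interaction ran from -0.4597 to 0.1270 for Lbr, -0.0320 to 0.4190 for Lmna, -0.0051 to 0.3631 for Cbx5 and -0.0116 to 0.1253 for Cbx1 (-0.0584 after median-of-ratios scaling). MexHT and HT OSN share only replicate numbers (correlations -0.228 to 0.132); a block on them gave 4801 genes and 8 members. Beyond the values given for gg8 Lmnb1 and the Setdb1 interaction, pairing changed no member call. Counts of 286 or more per member leave little counting error.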
